A study of Mus musculus with 27 samples.

Results

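The probes described here measure 10 genes of muscle mass control in single mouse myofibers: the ubiquitin ligase genes Fbxo32, Fbxo30, Fbxo31, Trim63, Trim32 and Nedd4, the FoxO factors Foxo1, Foxo3 and Foxo4, and Mstn, which encodes myostatin. They were taken as the non-control probes of the array that carry one of these gene symbols, which gave 16 probes for 10 of the 35527 named genes on the array. The series compared 27 myofibers of the tibialis anterior of 7 male mice, each hybridized to its own array after its RNA had been amplified on its own. WT was represented by 8 fibers of 2 wild type mice. Smn1deltaSKM was represented by 12 fibers of 3 mice that carry HSA-Cre and Smn F7/F7, so that the human skeletal actin promoter drives Cre and exon 7 of Smn1 is floxed and removed in muscle fibers only, as far as the promoter is active. Smn1deltaSKM+AFS was represented by 7 fibers of 2 mice of the same genotype that had received amniotic fluid stem (AFS) cells through the tail vein. The labels give an age of 3 months for every mouse, whereas the methods of the study place the cell injection at that age and the fiber isolation a month afterwards. The labels name no strain, and both Smn1deltaSKM groups carry Cre while the labels say nothing of Cre in WT.

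In muscle, myostatin and activins bind activin type II receptors and restrain growth through Smad proteins, while insulin-like growth factors act through the kinase Akt, which phosphorylates FoxO factors and keeps them out of the nucleus. FoxO factors that reach the nucleus raise transcription of ubiquitin ligase genes such as Fbxo32 and Trim63. The ligases then pick the proteins that the proteasome degrades. Atrogin-1, encoded by Fbxo32, and MuRF1, encoded by Trim63, are the ligases most often measured as signs of wasting after denervation, fasting or glucocorticoids.

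A few sequences show what was measured. The probes of Trim63, Fbxo30 and Foxo1 below are shown because each of these genes has a pair of probes whose levels differed in size or direction, so the result depends on which stretch of the transcript was read. They lie at chr4:133881557-133881616, chr10:11011329-11015032 and chr3:52150183-52150242 of mm9, all on the plus strand. The Fbxo30 probe has 60 bases that span 3704 bases of the genome, and therefore crosses a splice junction. The remaining sequence holds the 250 bases before the RefSeq start of Trim63 (GRCm38.p6, chr4:134314870-134315119, plus strand). It is shown because, among probes of different members, a Trim63 probe and a Foxo1 probe moved most closely together from fiber to fiber. Other pairings of Trim63 and Foxo1 probes moved less closely over all fibers. Capitals mark TGTTTAC, the reverse complement of the FoxO-type motif GTAAACA.
Trim63 A_55_P2106745: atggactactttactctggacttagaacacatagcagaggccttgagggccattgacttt
Fbxo30 A_66_P123804: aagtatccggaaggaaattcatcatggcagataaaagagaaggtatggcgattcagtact
Foxo1 A_51_P138044: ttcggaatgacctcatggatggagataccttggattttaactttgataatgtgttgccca
Trim63 promoter: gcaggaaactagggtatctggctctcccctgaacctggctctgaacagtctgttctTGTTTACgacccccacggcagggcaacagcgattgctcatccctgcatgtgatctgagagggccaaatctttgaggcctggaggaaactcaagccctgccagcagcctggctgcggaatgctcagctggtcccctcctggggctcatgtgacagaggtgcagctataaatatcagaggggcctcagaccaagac

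The motif begins 194 bases before the start of Trim63. Of the 8 member genes that RefSeq lists with such a window, Trim63 was the only one with these 7 letters on either strand. The letters occur in 3.17% of all 32851 windows of that length, and a match describes the sequence without showing that a factor binds there.

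All levels below are log2 signals relative to the 75th percentile of the same array, so that 0 is the level that 3 in 4 probes of the array do not reach. They compare fibers for the same probe and not different genes. A difference was tested over the means of the mice by limma with Benjamini-Hochberg adjustment over all tested probes, and called where the adjusted p was under 0.05. On each array, from 23183 to 37595 probes gave a usable signal. The WT fibers filled a slide of their own, and its scan day held no array of the other groups, so genotype and batch cannot be told apart in any comparison with WT. Of the Smn1deltaSKM fibers, 3 of mouse 1 were scanned on day 1 and the other 9 on day 2. Of the Smn1deltaSKM+AFS fibers, 2 were scanned on day 1 and 5 on day 2. Smn1 has a pair of probes, and against WT the Smn1deltaSKM level was lower on A_55_P2048848 (log2 difference -1.68, limma adjusted p = 0.0205) and not called on A_55_P2048560 (0.19, adjusted p = 0.717). Their position relative to exon 7 was not examined. The fibers carried the markers of muscle, with 9 to 11 of 12 myofiber markers detected on every fiber of a group. Of 11 myofiber markers tested, 1 was higher and 2, Mylpf and Ckm, were lower in Smn1deltaSKM than in WT, with a median of -0.51. Myh1, the myosin heavy chain of type IIX fibers, was higher in Smn1deltaSKM than in WT by a log2 difference of 2.20 (adjusted p = 0.0229), a call that was lost without the Smn1deltaSKM fibers of scan day 1 (1.31, adjusted p = 0.357). Among 7 immune markers, whose summed log2 level ran from 7.63 to 8.30 in WT and from 7.56 to 8.03 in Smn1deltaSKM, 5 were tested. Cd68 (2.99, adjusted p = 0.0371) and Ptprc (1.33, adjusted p = 0.0225) were higher in Smn1deltaSKM, calls that were lost without either WT mouse or Smn1deltaSKM mouse 2 or 3, while Cd14 differed by 0.98, Itgam by -0.14 and Csf1r by -0.50 without being called. Of other cell types, the erythroid gene Hba-a2 (1.65, adjusted p = 0.0222), close in sequence to Hba-a1, and the smooth muscle gene Tagln (1.07, adjusted p = 0.0492) were also higher, with medians of 1.56 over 2 erythroid markers, 1.08 over 4 smooth muscle and pericyte markers and 1.13 over 2 fibroblast markers, none of the latter called. The call of Hba-a2 was lost in the authors' value table (adjusted p = 0.219) and without WT fiber 8 (adjusted p = 0.0777). That of Tagln was lost under quantile normalization, in the authors' value table and without Smn1deltaSKM mouse 2 or 3 (adjusted p from 0.0511 to 0.131). Of 2 satellite cell, 1 endothelial and 2 Schwann cell markers tested, none was called, with medians of 0.05, 0.30 and 0.47. The part of fiber type or attached cells in the differences below was not tested, and more RNA in a fiber cannot be told apart from RNA of cells attached to it.

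Members moved in both directions in Smn1deltaSKM. Fbxo32, Nedd4 and Fbxo31 were lower than in WT and 1 Foxo4 probe was higher, while Trim63, Fbxo30, Foxo1 and Foxo3 did not pass the test. Of the 16 probes, 11 had a usable signal on at least 75% of the arrays and were tested, and these stand for 8 of the 10 genes. Of the 11 probes, 4 were called, 1 higher and 3 lower, and 6 had an unadjusted p under 0.05. Over all 22882 probes tested, 21.3% were called, 7.03% higher and 14.3% lower. The median log2 difference was -0.78 over the 8 genes and -0.16 over all probes. The call split depends on the scaling: 1609 probes were higher and 3267 lower, but 2364 were higher and 1249 lower when the percentile was taken over the probes detected on all arrays, which moved the median of all probes to 0.16. The called members kept their direction under that scaling and are also given below relative to the median of all probes.

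**Figure D1:**
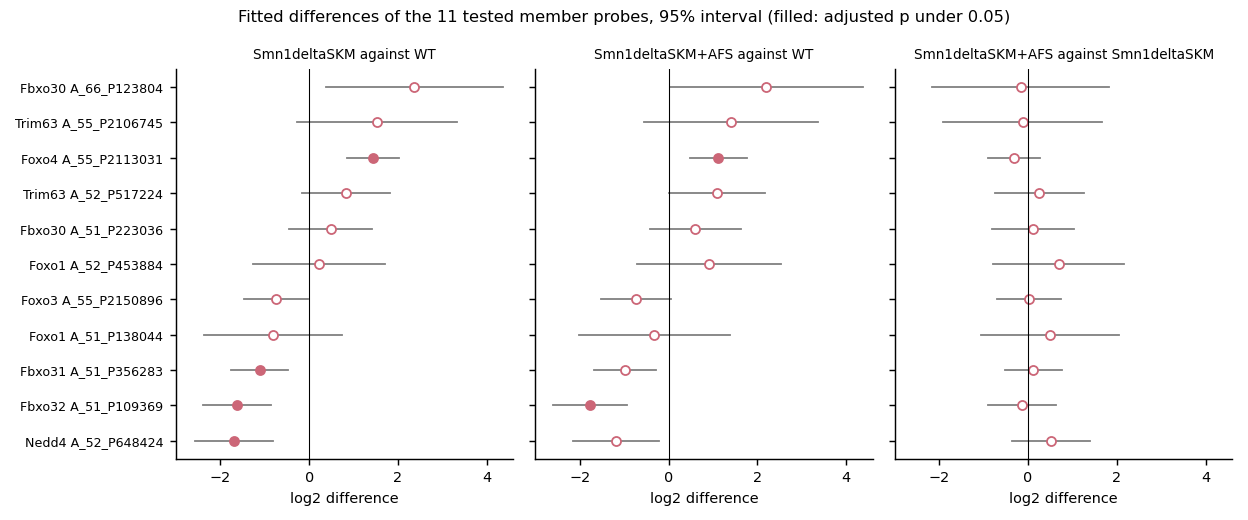
Fitted log2 difference of each of the 11 tested member probes (points, filled where the adjusted p is under 0.05) with its 95% interval (lines) in the 3 comparisons, from limma over the means of 7 mice. In Smn1deltaSKM against WT the differences run from -1.69 for Nedd4 to 2.37 for a Fbxo30 probe, and in Smn1deltaSKM+AFS against Smn1deltaSKM every interval includes 0.

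Fbxo32 encodes atrogin-1, the F-box subunit that brings substrates to an SCF ubiquitin ligase. Its probe lies at chr15:58011752-58011811 (mm9) and is printed 10 times on the array, and the standard deviation of these spots on an array had a median of 0.0156. In WT the log2 level had a lowest value of 2.07, a median of 3.86 and a highest value of 4.53. In Smn1deltaSKM these were 1.56, 2.06 and 3.00, and in Smn1deltaSKM+AFS 1.08, 2.20 and 2.81. Thus 7 of the 8 WT fibers lay above every Smn1deltaSKM fiber, and the remaining fiber, number 8 of WT mouse 2, lay among them. Over mice the mean was 3.79 ± 0.696 in WT (SD, n = 2) and 2.16 ± 0.11 in Smn1deltaSKM (SD, n = 3). The log2 difference was -1.63 (standard error 0.333, 95% interval -2.39 to -0.87, limma adjusted p = 0.0169), or -1.47 relative to the median of all probes. The WT mice themselves stood at 4.28 and 3.30, and the call was lost without WT mouse 1 (-1.14, adjusted p = 0.168), without WT mouse 2 (-2.12, adjusted p = 0.0575) and with the slide as a random block (-1.62, adjusted p = 0.0594). In Smn1deltaSKM+AFS the level was also below WT (-1.77 on the log2 scale, standard error 0.364, limma adjusted p = 0.0336), against a background of 7.33% of probes called in that comparison, 2.99% higher and 4.34% lower. This call was lost in 7 of 23 alternatives: with the slide as a random block, and without any single WT or AFS mouse, Smn1deltaSKM mouse 2 or mouse 3 (adjusted p from 0.0538 to 0.246).

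Nedd4, a HECT-type ubiquitin ligase known in muscle for acting on Notch during disuse, showed no overlap between WT and Smn1deltaSKM. Its probe lies at chr9:72597306-72597365 (mm9). The log2 level in WT fibers had a lowest value of 4.14, a median of 4.94 and a highest of 5.91, whereas in Smn1deltaSKM these were 2.62, 3.30 and 3.73. Every one of the 12 Smn1deltaSKM fibers was below every WT fiber, as was so, in one direction or the other, for 10.3% of all tested probes. The log2 difference over mice was -1.69 (standard error 0.386, 95% interval -2.58 to -0.81, limma adjusted p = 0.0223), or -1.54 relative to the median of all probes. In Smn1deltaSKM+AFS the levels ran from 2.87 to 4.50 with a median of 3.49, and the animals differed, with mouse 1 at 3.16 and mouse 2 at 4.26. All 3 fibers of AFS mouse 2 lay above the highest Smn1deltaSKM fiber, whereas the fibers of mouse 1 lay within the Smn1deltaSKM range. Against WT the group differed by -1.19 (limma adjusted p = 0.110) and against Smn1deltaSKM by 0.51 (95% interval -0.37 to 1.39), neither of which passed the test. The call between Smn1deltaSKM and WT was lost under quantile normalization (-1.41, adjusted p = 0.0575), with the percentile over the probes detected on all arrays (-1.37, adjusted p = 0.0561), in the authors' value table (-1.40, adjusted p = 0.0569) and without either WT mouse or Smn1deltaSKM mouse 2 or 3 (adjusted p from 0.0508 to 0.200).

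Fbxo31 encodes another F-box subunit, known for the degradation of cyclin D1, and its probe lies at chr8:124075949-124076008 (mm9). Its log2 level had a lowest value of 2.34, a median of 3.02 and a highest value of 3.31 in WT and of 1.05, 1.89 and 2.38 in Smn1deltaSKM. Of the WT fibers 7 of 8 lay above every Smn1deltaSKM fiber, and 10 of 12 Smn1deltaSKM fibers lay below every WT fiber. The means were 2.93 ± 0.00549 in WT (SD, n = 2 mice) and 1.82 ± 0.292 in Smn1deltaSKM (SD, n = 3 mice). The log2 difference was -1.11 (standard error 0.281, 95% interval -1.75 to -0.47, limma adjusted p = 0.0294), or -0.95 relative to the median of all probes. This was the least stable of the 4 calls: it was lost in 11 of 23 alternatives, where the adjusted p reached 0.194 and the difference stayed between -1.26 and -0.79. In Smn1deltaSKM+AFS the levels ran from 1.42 to 2.52 with a median of 1.91.

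**Figure D2:**
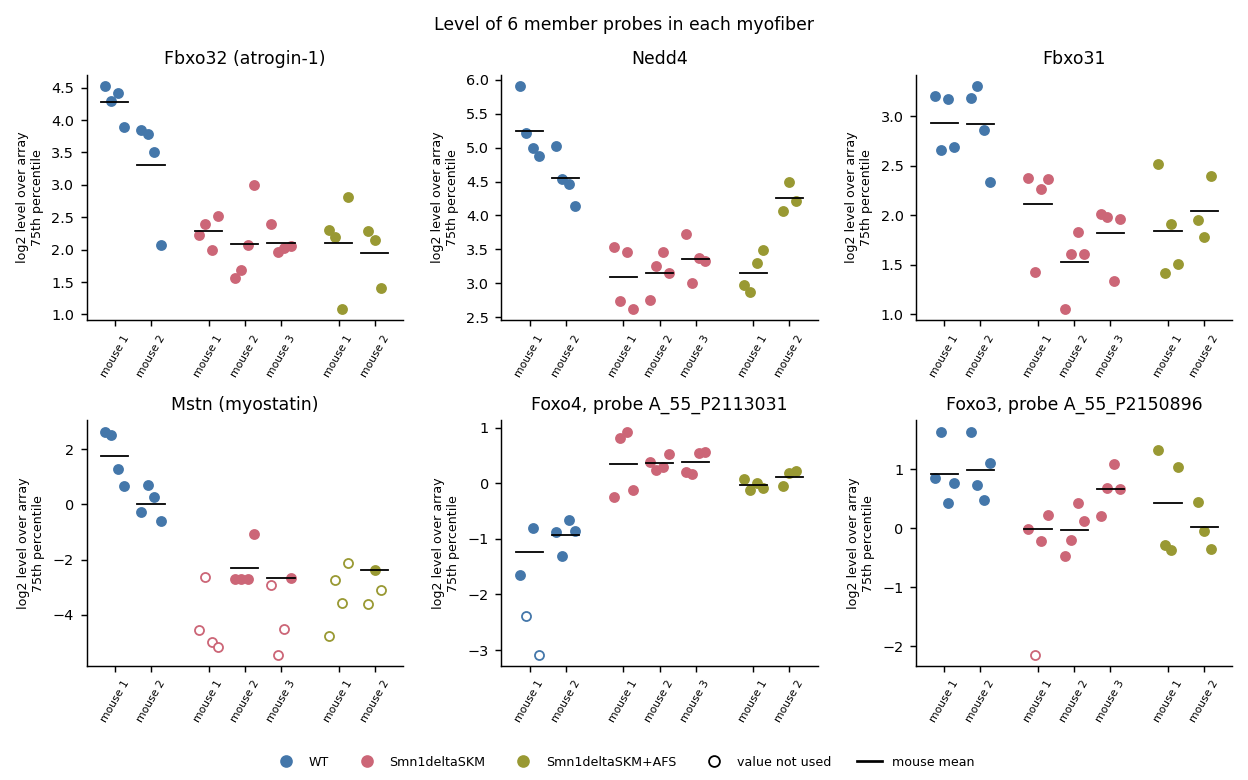
Log2 level of 6 member probes in each fiber (points), relative to the 75th percentile of its array, with the mean of each mouse over the values used (line). Open points are signals that were not used, because the spot was not well above background or was uneven. Fbxo32, Nedd4 and Fbxo31 lie lower in the Smn1deltaSKM groups than in WT, the Foxo4 probe lies higher, and most Mstn points outside WT are open.

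Foxo4 encodes another FoxO factor under the control of Akt, and 1 of its 3 probes carried a usable signal on most arrays. That probe, A_55_P2113031 at chrX:98451524-98451583 (mm9), was built on another cDNA than the other pair. Its log2 level in WT had a lowest value of -3.09, a median of -1.09 and a highest value of -0.67, with 2 of the 8 signals not usable. In Smn1deltaSKM it ran from -0.24 through 0.34 to 0.93, and in Smn1deltaSKM+AFS from -0.12 through 0.00 to 0.22. Every fiber of both Smn1deltaSKM groups lay above every WT fiber. The same absence of overlap, in either direction, was found in Smn1deltaSKM for 10.3% of tested probes and 5.43% of all probes. In Smn1deltaSKM+AFS it was found for 8.42% of all probes. The log2 difference over mice was 1.44 for Smn1deltaSKM against WT (standard error 0.256, 95% interval 0.85 to 2.02, limma adjusted p = 0.0129), or 1.59 relative to the median of all probes, and 1.12 for Smn1deltaSKM+AFS against WT (standard error 0.279, limma adjusted p = 0.0495). The first call was lost without WT mouse 1 (1.29, adjusted p = 0.149) or WT mouse 2 (1.59, adjusted p = 0.0734), and the second in 13 of 22 alternatives. The other Foxo4 probes were near background: A_55_P2113026 had no usable signal on any of the 27 arrays and A_55_P2150901 had one on 2 Smn1deltaSKM arrays. The rise thus belongs to 1 probe and could not be checked on the others.

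Foxo3, the FoxO factor best known for driving atrogin-1, was measured by probe A_55_P2150896 at log2 levels with a lowest value of 0.43, a median of 0.81 and a highest value of 1.64 in WT. In Smn1deltaSKM the values were -2.15, 0.17 and 1.09, the lowest of them from a spot that was not used, and 9 of the 12 fibers lay below every WT fiber. The log2 difference of -0.75 (95% interval -1.47 to -0.03) did not pass the test over all probes (limma adjusted p = 0.116). A second Foxo3 probe, A_55_P2129309, was dim and had too few usable signals to be tested. With every signal kept, its log2 difference between Smn1deltaSKM and WT had the other sign, at 0.65 (95% interval -0.33 to 1.63, limma adjusted p = 0.325).

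Foxo1, a FoxO factor induced by fasting, was read differently by its probes. On A_51_P138044 the log2 level had a lowest value of 1.38, a median of 2.45 and a highest value of 3.14 in WT. In Smn1deltaSKM the 3 fibers of scan day 1 lay between -0.19 and 1.08 and the 9 of scan day 2 between 1.50 and 3.05, so these ranges did not overlap. The log2 difference from WT was -0.82 (95% interval -2.37 to 0.74, limma adjusted p = 0.403). On A_52_P453884 the scan days overlapped, with 0.57 to 0.93 on day 1 and -0.29 to 2.18 on day 2, and the difference was 0.22 (95% interval -1.27 to 1.71, adjusted p = 0.827), which turned to the other sign under 5 alternatives. In Smn1deltaSKM+AFS both probes separated the mice: A_51_P138044 stood at 3.13 in mouse 1 and 1.13 in mouse 2, and A_52_P453884 at 2.84 and 0.42. Every fiber of AFS mouse 1 lay above every fiber of AFS mouse 2 on both probes. On A_52_P453884 the 2 AFS fibers of scan day 1, both of mouse 1, lay at 3.33 to 3.76, above those of day 2 at 0.01 to 2.42, and on A_51_P138044 they lay within the range of day 2.

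Trim63 encodes MuRF1, a RING finger ligase of the sarcomere whose substrates include thick filament proteins, and its fitted level in Smn1deltaSKM was above that of WT on both probes without passing the test. On A_52_P517224 (chr4:133885025-133885084, mm9) the log2 level in WT had a lowest value of 0.96, a median of 3.23 and a highest value of 3.99. In Smn1deltaSKM the values were 3.29, 3.88 and 5.20, and in Smn1deltaSKM+AFS 2.66, 4.29 and 5.35. Among the Smn1deltaSKM fibers 6 of 12 lay above every WT fiber. The log2 difference was 0.84 (standard error 0.436, 95% interval -0.16 to 1.83, limma adjusted p = 0.191). On A_55_P2106745, printed above, the WT levels were -0.67, 1.66 and 2.18 and the Smn1deltaSKM levels 1.83, 2.80 and 4.59, with 9 of 12 fibers above every WT fiber and a difference of 1.52 (95% interval -0.27 to 3.32, adjusted p = 0.186). Neither difference passed the test over mice, and both did with fibers counted as replicates and no block (adjusted p = 0.0337 and 0.0107). That count treats fibers of 1 mouse as independent. On the latter probe the AFS mice had means of 4.24 and 1.38, and the scan days differed too. The 2 AFS fibers of scan day 1, both of mouse 1, lay at 4.96 to 5.19 and those of day 2 at 0.40 to 3.95, while in Smn1deltaSKM day 1 ran from 3.34 to 4.59 and day 2 from 1.83 to 3.51.

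Fbxo30, which encodes the F-box subunit also called MUSA1 and is known to be held down by BMP signalling in muscle, had the largest fitted difference among the 11 tested probes and the largest spread between fibers. On A_66_P123804, the probe across a splice junction, the log2 level in WT had a lowest value of -1.29, a median of -0.39 and a highest value of 0.85. In Smn1deltaSKM the values were 0.53, 1.44 and 5.16, and in Smn1deltaSKM+AFS -0.01, 1.93 and 4.06. Among the Smn1deltaSKM fibers 10 of 12 lay above every WT fiber, as did 6 of 7 Smn1deltaSKM+AFS fibers. The difference of 2.37 over mice (standard error 0.875, 95% interval 0.37 to 4.37) did not pass the test (limma adjusted p = 0.0838). Fibers of scan day 1 stood apart: 4.45 to 5.16 against 0.53 to 2.00 on day 2 in Smn1deltaSKM, and 3.01 to 4.06 against -0.01 to 2.10 in Smn1deltaSKM+AFS. Without the Smn1deltaSKM fibers of scan day 1 the difference was smaller and called (1.69, adjusted p = 0.0372), as it was without Smn1deltaSKM mouse 1 (1.41, adjusted p = 0.0473). The other Fbxo30 probe, A_51_P223036, which lies 3' of it on chromosome 10, differed by 0.49 (95% interval -0.45 to 1.42, adjusted p = 0.407).

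**Figure D3:**
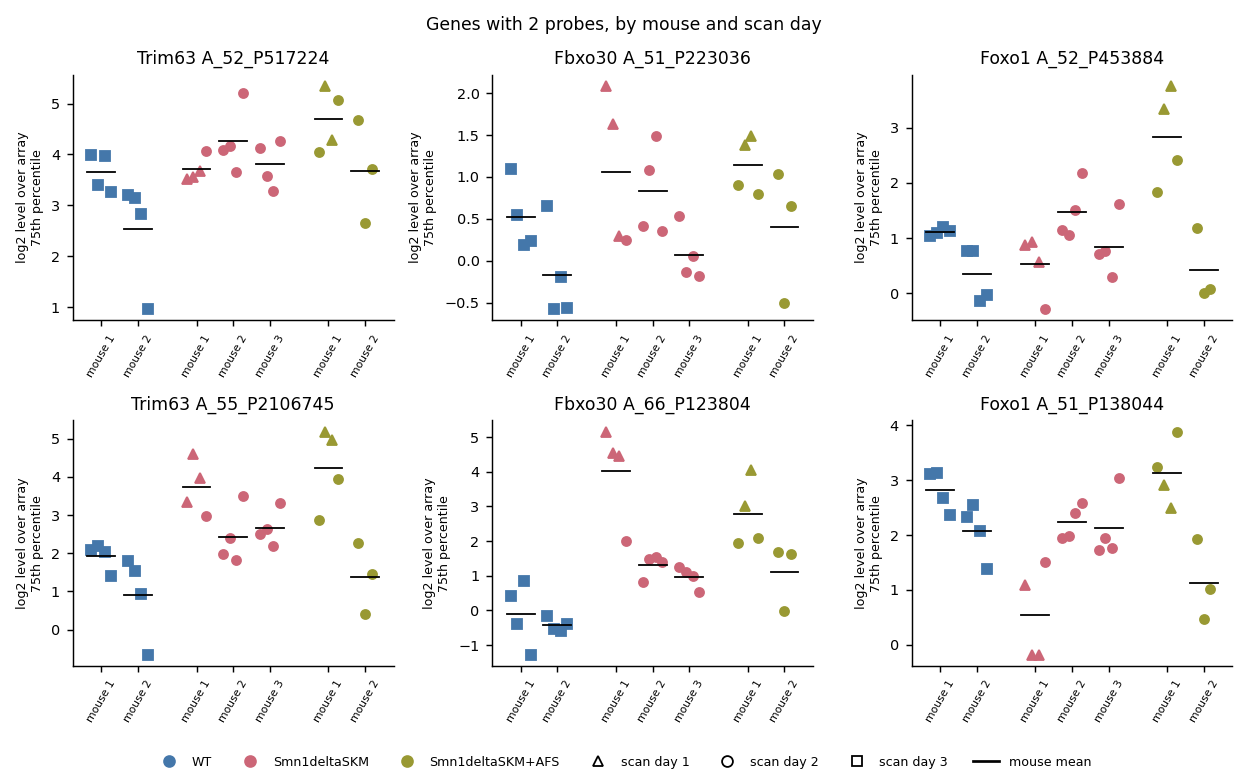
Log2 level in each fiber for Trim63, Fbxo30 and Foxo1, each with a pair of probes (rows), relative to the 75th percentile of the array. Shapes give the scan day, colours the group and lines the mouse means. Triangles of scan day 1 stand highest for Fbxo30 A_66_P123804 and lowest in Smn1deltaSKM for Foxo1 A_51_P138044, while the partner probes do not show this to the same extent.

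Trim32, a ligase that is mutated in a form of limb-girdle muscular dystrophy, was detected on all 27 arrays, but its spot was marked as uneven on 9 of them and so it was not tested. With every signal kept, its log2 difference between Smn1deltaSKM and WT was -0.49 (95% interval -1.30 to 0.32, limma adjusted p = 0.361).

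Mstn was detected in WT and mostly at background elsewhere. Its probe lies at chr1:53124482-53124541 (mm9). The log2 signal in WT had a lowest value of -0.61, a median of 0.69 and a highest value of 2.65, and it was usable in all 8 fibers. In Smn1deltaSKM the signal ran from -5.47 through -2.82 to -1.06 and was usable in 5 of 12 fibers, 4 of them from mouse 2, 1 from mouse 3 and 0 from mouse 1. In Smn1deltaSKM+AFS it ran from -4.78 through -3.12 to -2.12 and was usable in 1 of 7. Every fiber of both groups lay below every WT fiber, as was so, in one direction or the other, for 5.43% of all probes in Smn1deltaSKM and 8.42% in Smn1deltaSKM+AFS. Mstn did not reach the share of arrays needed for the test. With all signals kept and no filter, a fit in which 12.6% of all probes were called, and 6.49% of all probes called lower, the log2 difference was -4.41 for Smn1deltaSKM against WT (standard error 0.648, 95% interval -5.85 to -2.97, limma adjusted p = 0.00683), and the size rests on signals at background. It was -4.07 for Smn1deltaSKM+AFS against WT (standard error 0.709, adjusted p = 0.0182, with 4.96% of probes called). The WT mice stood at 1.78 and 0.02, and without WT mouse 1 the first difference was -3.53 and no longer called (adjusted p = 0.106). The second lost its call without any single WT or AFS mouse (adjusted p from 0.0535 to 0.175). Without all fibers of scan day 1 both were called (-4.68, adjusted p = 0.0103, and -4.15, adjusted p = 0.0352).

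No member passed the test between Smn1deltaSKM+AFS and Smn1deltaSKM. Over all 22169 probes 0% were called in this comparison by limma, and of the 11 member probes 0 had an unadjusted p under 0.05. The fitted log2 differences of the members ran from -0.32 for Foxo4 to 0.69 for Foxo1 A_52_P453884. Their 95% intervals bound the change rather than exclude it: for Fbxo32 -0.90 to 0.62, for Fbxo31 -0.52 to 0.76, for Foxo4 -0.90 to 0.27 and for Trim63 A_52_P517224 -0.74 to 1.25, but for Fbxo30 A_66_P123804 as wide as -2.17 to 1.82. Within scan day 2, the only day with fibers of several mice of both groups, Fbxo32 differed by 0.01 and Nedd4 by 0.70, neither of them called. Against WT the AFS group had 2 of 8 tested member genes called, Fbxo32 lower and Foxo4 higher, where 7.33% of all probes were called. Both calls were lost under some of the alternatives, as given above. This comparison shares its mice with the other pair, so its values stand beside theirs rather than in support of them.

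Fibers of the same mouse differed more for some members than for others. The standard deviation of the log2 level between fibers within mice was 0.835 for Fbxo30 A_66_P123804 and 0.81 for Trim63 A_55_P2106745, larger than for 94.6% and 93.9% of tested probes. Both also differed by scan day within a mouse. This Fbxo30 probe lay at 4.45 to 5.16 on day 1 and 2.00 on day 2 in Smn1deltaSKM mouse 1. This Trim63 probe lay at 4.96 to 5.19 on day 1 and 2.88 to 3.95 on day 2 in AFS mouse 1. The part of scan day in these spreads was not tested. Foxo4 (0.33) and Nedd4 (0.36) varied less than most probes, with 18.3% and 26.1% of probes below them. The Foxo4 value leaves out the 2 lowest WT signals, -2.39 and -3.09 in mouse 1, which were not usable. Fbxo32 lay between, at 0.541.

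Some members moved together from fiber to fiber. With each mouse's mean subtracted, Pearson's r over the 27 fibers was 0.80 between Trim63 A_55_P2106745 and Foxo1 A_52_P453884, larger than between the Trim63 probes themselves (0.76). It was 0.67 between Fbxo32 and Trim63 A_52_P517224 and 0.57 between Fbxo32 and Foxo1 A_51_P138044. Other probes of these genes gave lower values, with 0.59, 0.46 and 0.19 for the remaining pairings of Trim63 with Foxo1. For Fbxo32 they were 0.34 with Trim63 A_55_P2106745 and 0.09 with Foxo1 A_52_P453884. Without scan day 1 all of these pairings of different genes lay between 0.56 and 0.84 over 22 fibers, WT fiber 8 among them. These are descriptions over fibers, and all probes of a fiber share its amplification, slide and array scaling. The value for Fbxo32 and Trim63 A_52_P517224 fell to 0.49 without WT fiber 8, which was low for both genes. Without that fiber Fbxo32 stood at 0.07 with Trim63 A_55_P2106745 and at -0.01 with Foxo1 A_52_P453884. Trim63 A_55_P2106745 then stood at 0.04 with Foxo1 A_51_P138044 and at 0.84 with Foxo1 A_52_P453884. The remaining pairings of these genes lay between 0.46 and 0.53. The Foxo1 probes correlated at 0.12 over all fibers and at 0.83 over the 22 fibers left without scan day 1, and the Trim63 probes at 0.95 there. Among the genes whose brightest probe followed Fbxo32 most closely were Ift46 (0.88, 26 fibers) and a transcript named only by its position (0.85, 27 fibers). Those nearest to Trim63 A_52_P517224 were Vasn (0.89), Fam83g (0.86) and Abhd1 (0.84), each over 27 fibers.

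**Figure D4:**
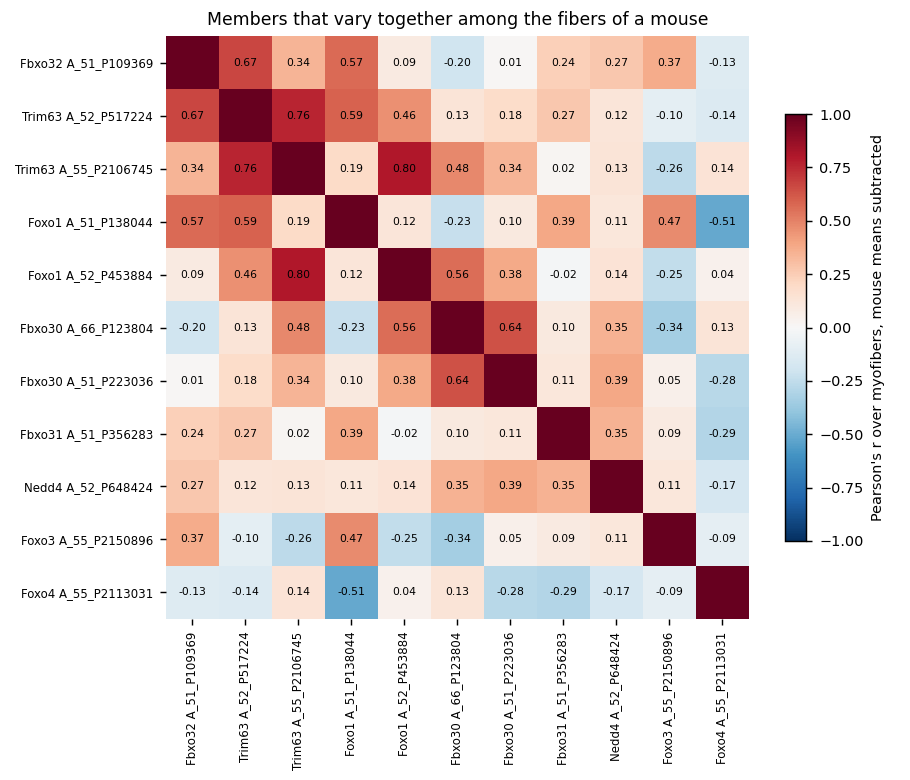
Pearson's r between the 11 tested member probes over the fibers with a usable signal for both, after the mean of each mouse was subtracted. Colours run from blue (negative) to red (positive), with the value in each cell. Pairs rest on 27 fibers, or on 24 to 26 where Foxo3 or Foxo4 is 1 of them. The largest values between different genes join Trim63 A_55_P2106745 with Foxo1 A_52_P453884 (0.80) and Trim63 A_52_P517224 with Fbxo32 (0.67). The lowest joins Foxo1 A_51_P138044 with Foxo4 (-0.51, 25 fibers).

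Of 21 other ubiquitin ligases of muscle that were tested, 6 were lower in Smn1deltaSKM than in WT and 0 higher, with a median log2 difference of -0.70, where 21.1% of all named genes were called (1281 higher, 2314 lower) with a median of -0.13. Among those that fell were Asb2, a muscle ligase subunit that acts on filamins (-2.31, standard error 0.547, limma adjusted p = 0.0248), and the N-end rule ligase Ubr2 (-2.08, adjusted p = 0.0290). With the percentile over the probes detected on all arrays both calls were lost (adjusted p = 0.052 and 0.0616). That of Asb2 was also lost under quantile normalization (adjusted p = 0.061) and in the authors' value table (adjusted p = 0.06). Of 18 genes for ubiquitin, its activating and conjugating enzymes and the SCF core, 7 were lower and 0 higher, with a median of -0.87. Among them, the conjugating enzyme gene Ube2g1 fell by 2.74 on the log2 scale (adjusted p = 0.00704). Of 10 deubiquitinases 3 were lower, among them Usp2 (-2.07, adjusted p = 0.0405), whose call was lost under all 4 other scalings (adjusted p from 0.0649 to 0.0840). That last count was 0 when arrays were scaled on the probes detected on all of them, while by the percentile over those probes the other ligases had 1 gene higher and 2 lower and the ubiquitin core 5 lower.

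Of 9 sarcomeric and other substrates tested, 5 were lower and 0 higher in Smn1deltaSKM, with a median of -0.96, and the count was 1 under quantile normalization and in the authors' value table. Myod1, a myogenic transcription factor that Fbxo32 acts on, differed by 1.46 without passing the test (adjusted p = 0.204). Mylpf, the fast regulatory light chain, fell by 1.99 on the log2 scale (standard error 0.4, limma adjusted p = 0.0162) and Ckm, muscle creatine kinase, by 1.76 (adjusted p = 0.0221). The call of Ckm was lost under quantile normalization, the percentile over the probes detected on all arrays and the authors' value table (adjusted p from 0.0536 to 0.103). These are transcript levels, and the proteins that the ligases act on were not measured.

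Among 27 tested genes that FoxO factors are known to regulate, 1 was higher and 7 were lower in Smn1deltaSKM, with a median of -0.46. Gabarapl1, an autophagosome protein gene, was higher, at 3.67 ± 0.0641 in WT (SD, n = 2 mice) and 5.52 ± 0.196 in Smn1deltaSKM (SD, n = 3 mice; log2 difference 1.85, limma adjusted p = 0.0255). Txnip, an inhibitor of thioredoxin, fell by 2.87 on the log2 scale (adjusted p = 0.0110) and the cell cycle inhibitor gene Cdkn1b by 2.37 (adjusted p = 0.00704). Ddit4, an inhibitor of mTORC1, fell by 1.92 (adjusted p = 0.0212). The count of lower FoxO targets was 3 under each of the 4 other scalings. Of 20 genes that act on FoxO factors, 1 was higher and 2 were lower, 15% against 21.1% of all named genes. Sirt1, a deacetylase that acts on FoxO proteins, was higher by 1.28 (adjusted p = 0.0209), and the insulin pathway genes Irs1 (-1.62, adjusted p = 0.0337) and Pdpk1 (-1.31, adjusted p = 0.0210) were lower. The call of Irs1 was lost under all 4 other scalings (adjusted p from 0.0599 to 0.0872).

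Beside Mstn, 25 genes of the myostatin, activin and BMP pathways were tested, of which 2 were higher and 4 lower, with a median of -0.32. This share of 24% lies near the 21.1% of all named genes. The lower ones included receptors that bind myostatin or activin. Acvr2a, a type II receptor, stood at 1.66 ± 0.281 in WT (SD, n = 2 mice) and -1.04 ± 0.057 in Smn1deltaSKM (SD, n = 3 mice), which differ by -2.70 on the log2 scale (standard error 0.281, limma adjusted p = 0.00704). Acvr1b, a type I receptor, fell by 3.01 (standard error 0.382, adjusted p = 0.00716) and Furin, a protease that cuts the myostatin precursor, by 1.85 (adjusted p = 0.00777). Gdf5, a BMP-type ligand known to limit denervation atrophy, was higher by 1.72 (standard error 0.343, adjusted p = 0.0159), as was Fstl3, a secreted binder of myostatin and activin (1.09, adjusted p = 0.0350). The call of Fstl3 was lost under quantile normalization, in the authors' value table and without Smn1deltaSKM mouse 2 or 3 (adjusted p from 0.0506 to 0.101). In Smn1deltaSKM+AFS the differences from WT were -3.06 for Acvr2a, -2.48 for Acvr1b and 1.63 for Gdf5, all called.

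**Figure D5:**
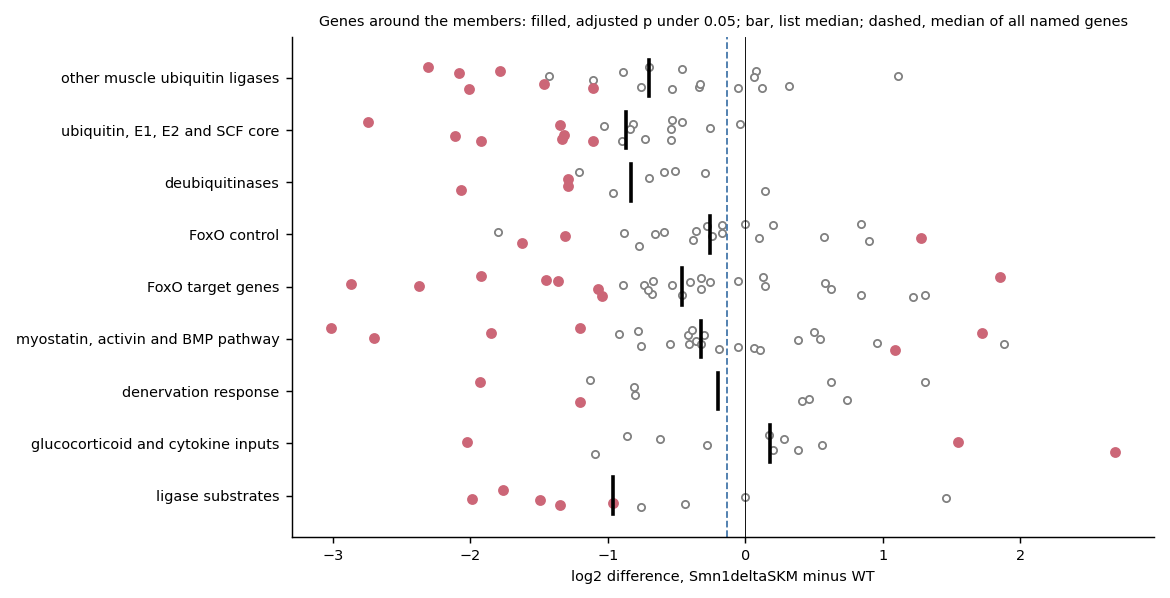
Log2 difference between Smn1deltaSKM and WT for each tested gene of 9 lists (points, filled where the adjusted p is under 0.05), with the median of the list (bar) and the median of all named genes (dashed line, -0.13). The medians of ligase substrates (-0.96), of the ubiquitin core (-0.87) and of deubiquitinases (-0.83) lie farthest below the dashed line, and the glucocorticoid and cytokine inputs lie above it.

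Of the 34 other genes chosen by rule from these lists and from the cell type markers as the largest called changes, none changed direction under any of the 4 other scalings, without WT fiber 8, without the fibers of scan day 1 or without any single mouse of these groups. These genes were chosen for large differences in the same data, so a kept direction is no independent check of them. Between 24 and 29 of them remained called under the other scalings, and 0 without either WT mouse.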

How the data were processed

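RNA of single fibers was amplified in 18 cycles and hybridized in 1 colour to Agilent 8x60K mouse arrays. Per the labels, the deposited intensity (gProcessedSignal) came from Agilent Feature Extraction 10.7.3.1, background-subtracted, with no scaling from array to array. The authors' value table, an alternative here, holds a linear signal that the authors made equal in distribution between arrays. Here log2 intensities were reduced by the 75th percentile of each array, and left out where a spot was not found, not well above background or uneven. Repeated spots were averaged. Probes with values on 75% of arrays (20 arrays for Smn1deltaSKM against WT, otherwise 27) were kept, fibers were averaged per mouse, and limma 3.58.1 (R 4.3.3) was fitted to the 7 mouse means of all 3 groups. The code was tested on simulated data. The brightest probe stood for a gene. Of each further list, at most 3 called genes per direction, those with the largest difference, were named, as were the 3 genes nearest to Fbxo32 and Trim63 by Pearson's r, except 3 genes that are not reported here. Members and lists were chosen with earlier results of these data known. Promoters came from RefSeq, where 2 member genes had no entry. The number of arrays limits the precision. The labels link same-numbered mice by the number only, and their deviations from the group means correlated at -0.05 to 0.30. The pair at 0.30 was mouse 1 of Smn1deltaSKM and mouse 1 of Smn1deltaSKM+AFS. They were the only mice with fibers of scan day 1, and both had a fiber on slide 3. A block by mouse number therefore partly follows the scan day.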

Additional observations from a re-analysis of the deposited data

Results flagged for a closer look

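WT fiber 8, from WT mouse 2, stood apart from the other WT fibers for both ligases that mark wasting. Fbxo32 was at a log2 level of 2.07 there, with the nearest WT fiber at 3.51, and Trim63 was at 0.96 on A_52_P517224, with the nearest at 2.83, and at -0.67 on A_55_P2106745, with the nearest at 0.93. Without standing apart in this way, it was also the lowest WT fiber for Fbxo31 (2.34), Nedd4 (4.14), Foxo1 A_51_P138044 (1.38) and Mstn (-0.61). It was not the lowest for Foxo1 A_52_P453884, Fbxo30, Trim32, Foxo3 or Foxo4 A_55_P2113031. The same array had the most usable probes of its group, 34012, where the WT median was 25156, and the part of this in the low values was not tested. Without this fiber the difference of Fbxo32 between Smn1deltaSKM and WT was -1.84 (limma adjusted p = 0.00753). Fbxo30 A_51_P223036 was at -0.50 in Smn1deltaSKM+AFS fiber 6, with the nearest fiber of its group at 0.65. Each was marked because the gap to the nearest fiber exceeded the critical share of the range in Dixon's test. Chance marks about 1 in 20 groups, and 24 groups were examined.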

How the results depend on the processing

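Of 775 recomputed member values, 665 kept their direction and their side of the threshold, 43 lost a call, 26 gained one and 41 changed sign. The causes were not tested. Each comparison with WT rests on 2 WT mice: leaving out single mice gave 0 to 9961 probes called for Smn1deltaSKM against WT (0 without either WT mouse) and 0 to 5 member genes, and for Smn1deltaSKM+AFS against WT 0 to 6501 probes and 0 to 4 member genes. For Smn1deltaSKM against WT the 4876 called probes became 7922 with fibers as replicates and the mouse as a random block, 12311 with no block, 3191 with values on every array, 2388 with the slide as a random block and 7709 at an adjusted p under 0.1. The 4 member genes became 7 with no block and 2 under quantile normalization, the percentile over the probes detected on all arrays, or the authors' value table. For Smn1deltaSKM+AFS against Smn1deltaSKM, 26 probes and 0 members were called with no block. For Smn1deltaSKM+AFS against WT the 1625 probes became 4448 with the mouse as a random block, 9155 with no block, 787 under quantile normalization, 1079 with the percentile over the probes detected on all arrays, 2458 with the measured signal kept, 963 in the authors' value table, 2759 with no filter, 1054 with values on every array, 4541 with only these groups and 3900 at an adjusted p under 0.1. The 2 member genes became 5 and 7 with fibers as replicates, 4 with only these groups, 0 with the slide as a random block, and 1 under quantile normalization, the percentile over the probes detected on all arrays, normexp, the authors' table, no filter or values on every array. In settings chosen after the data were seen, this comparison called 2749 probes without the Smn1deltaSKM fibers of scan day 1 and 2463 without all fibers of scan day 1.

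The mouse number as a replicate block gave 3000 probes for Smn1deltaSKM against WT and 1 member gene for Smn1deltaSKM+AFS against WT, where Foxo4 was at 1.12 (limma adjusted p = 0.0781). Under this block Fbxo31 lost its call (-1.11, adjusted p = 0.0748), Fbxo30 A_66_P123804 gained one (2.94, adjusted p = 0.0229) and Fbxo30 A_51_P223036 turned to -0.18 for Smn1deltaSKM+AFS against Smn1deltaSKM. It changed no other member call.

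None of the differences that changed sign was called in the report. For Smn1deltaSKM against WT, Foxo1 A_52_P453884 was -0.06 with the slide as a random block, -0.05 without either set of fibers of scan day 1, and -0.17 to 0.60 without single mice. For Smn1deltaSKM+AFS against Smn1deltaSKM, Fbxo32 was 0.01 within scan day 2 and without scan day 1, and -0.21 to -0.07 without single mice. The values without single mice were -0.50 to 1.50 for Foxo1 A_51_P138044, -0.52 to 1.89 for Foxo1 A_52_P453884, -0.25 to 0.76 for Trim63 A_52_P517224 and -0.04 to 1.06 for Nedd4. With the percentile over the probes detected on all arrays, Fbxo30 A_51_P223036 was -0.02, Fbxo31 -0.01 and Foxo3 -0.12, and without single mice they were -0.26 to 0.49, -0.03 to 0.27 and -0.19 to 0.24. With the slide as a random block Fbxo31 was -0.21. Foxo3 was also -0.07 with the median over those probes, -0.04 with normexp and -0.06 without the Smn1deltaSKM fibers of scan day 1. Trim63 A_55_P2106745 was 0.08 with no block, 0.35 with the slide as a random block, 0.12 without the Smn1deltaSKM fibers of scan day 1 and -1.56 to 1.31 without single mice. Fbxo30 A_66_P123804 was 0.13 within scan day 2 and without scan day 1, 0.51 without the Smn1deltaSKM fibers of that day and -1.01 to 0.79 without single mice. For Smn1deltaSKM+AFS against WT, Foxo1 A_51_P138044 was 0.12 with the slide as a random block and -1.32 to 0.68 without single mice, Foxo1 A_52_P453884 was -0.30 to 2.11 and Trim63 A_55_P2106745 -0.03 to 2.83. Signal near background limits Mstn, both dim Foxo4 probes and Foxo3 A_55_P2129309. The values of Mstn without single mice or scan day 1, the lists under other scalings and all results without WT fiber 8 or scan day 1 were also chosen after the data were seen.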

Other observations

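Among 10 tested genes of the denervation response, 2 were lower in Smn1deltaSKM than in WT and 0 higher, with a median log2 difference of -0.20, where 21.1% of all named genes were called. Hdac4, a deacetylase that links loss of nerve input to muscle gene expression, fell by 1.93 on the log2 scale (standard error 0.267, limma adjusted p = 0.00777). Myh8, the perinatal myosin heavy chain, whose transcript is close in sequence to those of other myosins, fell by 1.20 (adjusted p = 0.0206). The call of Myh8 was lost under quantile normalization, the percentile over the probes detected on all arrays and the authors' value table (adjusted p from 0.0676 to 0.089). The count of lower genes was 1 there.

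Of 12 tested genes of glucocorticoid and cytokine input to muscle wasting, 2 were higher and 1 was lower, with a median of 0.18. This share of 25% lies near the 21.1% of all named genes. Tnfrsf12a, the receptor of the cytokine TWEAK, stood at 3.31 ± 0.675 in WT (SD, n = 2 mice) and 6.04 ± 1.16 in Smn1deltaSKM+AFS (SD, n = 2 mice), and in Smn1deltaSKM it was higher than in WT by 2.69 (standard error 0.533, limma adjusted p = 0.0157). Stat3, which carries signals of interleukin-6, was higher by 1.55 (adjusted p = 0.0142). Fkbp5, a gene induced by glucocorticoids, fell by 2.02 (adjusted p = 0.0146). These counts of 2 higher and 1 lower were the same under the 4 other scalings.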
